A study of Rattus norvegicus with 8 samples.

Results

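The EGF receptor family and its inducible ligands were measured in the kidneys of rats deprived of dietary silicon (Si). The members were the receptors Egfr, Erbb2, Erbb3 and Erbb4 and the ligands Hbegf, Areg, Ereg, Tgfa and Btc. They were chosen by name: every probe set whose single gene symbol in the platform annotation is one of these 9 was kept, which gave 12 of the 31042 probe sets tested, 6 for receptors and 6 for ligands, and 9 of the 14217 genes named. All rats were female, of the outbred Sprague-Dawley stock, and 29 weeks old, and all had eaten a low-Si feed for 26 weeks. The Si deplete group drank low-Si water and took in 0.17 mg of Si daily for each kg of body weight. The Si replete group, the control, had orthosilicic acid added to its water and took in 4.1 mg daily. Each array held RNA from a whole left kidney of a single animal, and there were 4 arrays for each diet. Each level is therefore a whole-kidney average, in which fewer cells of a type and less RNA per cell cannot be told apart. The labels do not say how these 4 rats were picked from each larger group.

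The ErbB receptors are tyrosine kinases of the cell surface that work in pairs. A ligand bound to Egfr or Erbb4 brings receptors together, Erbb2 has no known ligand of its own and serves as partner, and Erbb3 has a weak kinase and signals through its partners. The ligands are made as membrane proteins and are released by proteases such as Adam17. They then act on nearby cells through the Ras-ERK and PI3K pathways. In the tubule, Egfr signalling is known for its role in repair after injury, and Hbegf and Areg are known as ligands that injured epithelium can induce. Egf itself is made in large amounts by the thick ascending limb and distal tubule of the healthy kidney.

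None of the 12 probe sets differed between the diets by limma's moderated test at an adjusted p under 0.1, a threshold that 0.151% of all probe sets passed (0.113% higher and 0.0387% lower). Their adjusted p-values ran from 0.286 to 0.979. The means of 9 were higher and those of 3 were lower in Si deplete kidneys, and the median difference was 0.15 on the log2 scale against -0.01 over all probe sets. Without adjustment, 2 had a p under 0.05, Hbegf and Erbb2, both with higher means, or 16.7% of the 12 against 14.9% of all probe sets (7.81% higher and 7.14% lower). For every member the levels of the diets overlapped, whereas 9.37% of all probe sets had no overlap (4.67% with all Si deplete levels higher). The exact 2-sided permutation test gave p = 0.114 at the least for a member, where 4 against 4 allow 0.0286. The share of members with an unadjusted p under 0.05 was near that of all probe sets.

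**Figure D1:**
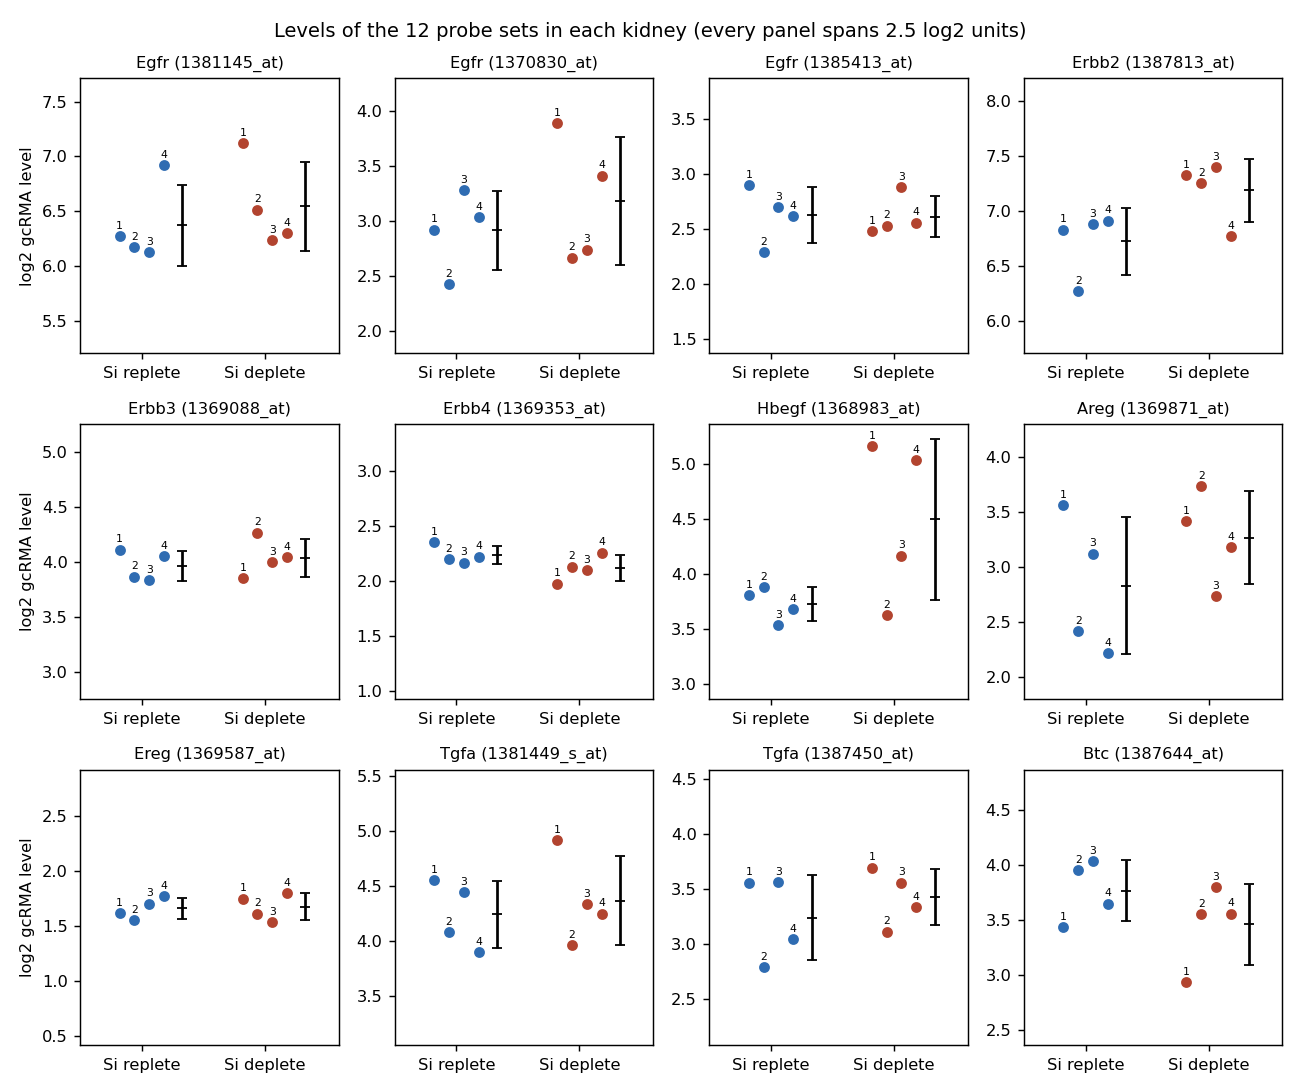
Log2 gcRMA level (vertical axis) of each of the 12 probe sets in each kidney, by diet (horizontal axis). Points are arrays labelled with their replicate number, and the bars beside them give the mean and SD of 4; the groups overlap in every panel, and the Hbegf levels of Si deplete replicates 1 and 4 lie above 5 while no Si replete array exceeds 3.88.

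The whole-kidney label and the arrays were checked first. Markers of tubule segments were bright on every array, with Umod of the thick ascending limb at 13.24 to 13.58, the endocytic receptor Lrp2 of the proximal tubule at 12.49 to 12.99 and the water channel Aqp2 of the collecting duct at 10.64 to 11.45. Parvalbumin (Pvalb), a distal tubule marker, lay near the low end of the scale, at a mean of 2.13. No gene of the 8 marker lists passed. The median difference was -0.09 for proximal tubule, -0.06 for thick limb, distal tubule and collecting duct, -0.38 for podocytes and 0.04 for endothelium. It was 0.29 for fibroblasts and mural cells and 0.43 for lymphocytes, whose markers were mostly dim. The fibroblast and mural differences ran from -0.25 to 1.80. At an unadjusted p under 0.05, 3 of 8 fibroblast and mural and 2 of 6 lymphocyte genes had higher means, beside 10.5% of all genes. Lower means at that p were found for 2 of 4 podocyte and 1 of 6 thick limb, distal tubule and collecting duct genes, beside 7.95%. Array medians were 3.85 to 3.92 in Si deplete kidneys and 3.80 to 3.84 in Si replete kidneys, so they did not overlap between the diets. Si deplete replicate 1 stood apart from the other arrays, at 64.0 on a first principal component that held 42.1% of the variance. On this component the other Si deplete arrays lay between -1.94 and 19.2. All Si replete arrays lay below them, between -25.9 and -18.8. Si deplete replicate 1 also held the highest level of the 8 arrays for 5 of the 12 member probe sets and the lowest for 2. Values without it are given below where its loss moved the difference of a member by over 1.5 times, and for Erbb2 and Hbegf.

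Among the receptors, Erbb2 had the smallest p. Its levels were 7.33, 7.26, 7.40 and 6.77 across Si deplete replicates 1 to 4, and 6.83, 6.28, 6.88 and 6.92 across Si replete replicates 1 to 4. Si deplete replicate 4 lay among the Si replete kidneys, and the other Si deplete kidneys lay above all of them. The means were 7.19 ± 0.29 (SD, n = 4) and 6.73 ± 0.30 (SD, n = 4), a log2 difference of 0.46 (standard error 0.18), or 1.38-fold. The 95% interval was 0.06 to 0.87 before adjustment over all probe sets, and the adjusted p from limma was 0.286. Si replete replicate 2 held the lowest level by a wide gap, and without it the difference was 0.31. Without Si deplete replicate 1 it was 0.42 (adjusted p = 0.449 from limma).

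Egfr, the receptor shared by all 5 ligands, was measured by 3 probe sets, of which 1 was well above the low end of the scale. On that probe set the levels were 7.12, 6.52, 6.24 and 6.31 across Si deplete replicates 1 to 4, and 6.27, 6.17, 6.13 and 6.92 across Si replete replicates 1 to 4. A single kidney of each group, Si deplete replicate 1 and Si replete replicate 4, stood above the rest. The log2 difference was 0.17 (standard error 0.23, 95% interval -0.35 to 0.69), and it was -0.02 without Si deplete replicate 1. As a fold the interval runs from 0.785 to 1.61, which is what 4 arrays a group could resolve for this probe set. The dimmer probe sets gave 0.26 (standard error 0.28) at a mean level of 3.05 and -0.01 (standard error 0.14) at a mean level of 2.62. On the first of these, Si deplete replicate 1 was again the highest, at 3.89, whereas on the other it was the lowest Si deplete array, at 2.48. Without that array the first difference was 0.025 and the other 0.0322.

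Erbb3 and Erbb4, the receptors for neuregulins, were dim and steady. Erbb3 lay at 3.85 to 4.27 in Si deplete kidneys and 3.84 to 4.11 in Si replete kidneys, a log2 difference of 0.07 (standard error 0.11). Erbb4, a receptor that also binds Hbegf and Btc, lay at 1.97 to 2.26 and 2.16 to 2.35, a log2 difference of -0.12 (standard error 0.09). The 95% intervals of -0.17 to 0.32 and -0.31 to 0.07 are the narrowest of the receptors. Without Si deplete replicate 1 the differences were 0.14 and -0.07. Erbb4 lay close to the bottom of the scale. A mean under 4 was found for 51.3% of all probe sets and for 7 of the 12 of the family.

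**Figure D2:**
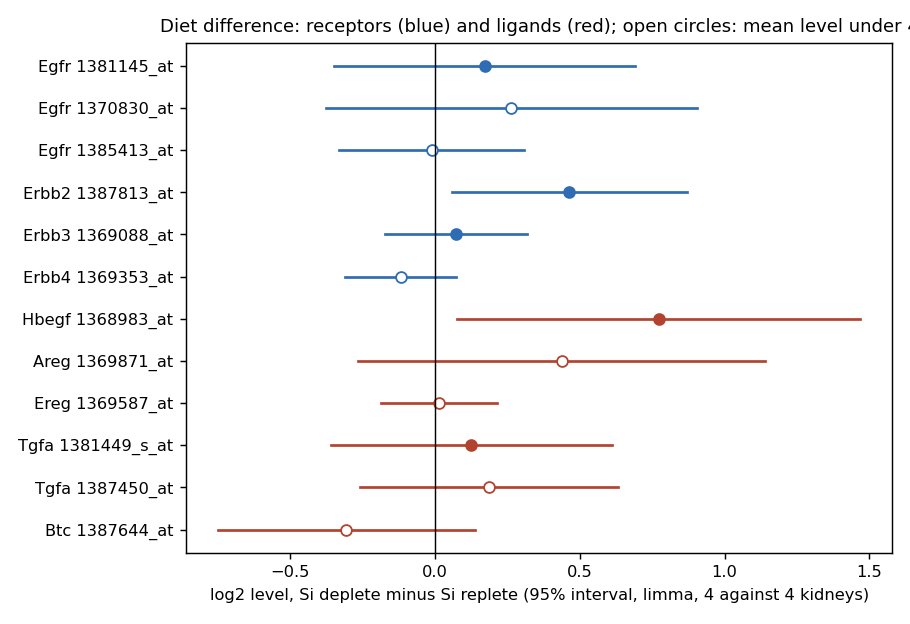
Difference in log2 level between Si deplete and Si replete kidneys (horizontal axis) for each member probe set (vertical axis), with the 95% interval from limma before adjustment. The intervals of Erbb2 (0.06 to 0.87) and Hbegf (0.08 to 1.47) lie above 0 and the other 10 include it; open circles mark a mean level under 4.

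Hbegf, which encodes heparin-binding EGF-like growth factor, showed the widest difference of the family. Its levels were 5.17, 3.63, 4.17 and 5.03 across Si deplete replicates 1 to 4, and 3.81, 3.88, 3.53 and 3.68 across Si replete replicates 1 to 4. Si deplete replicates 1 and 4 stood over a log2 unit above every Si replete kidney, replicate 3 was slightly above them, and replicate 2 lay within them. The SD was 0.73 in the Si deplete group and 0.15 in the Si replete group, on means of 4.50 and 3.73. The log2 difference was 0.77 (standard error 0.31, 95% interval 0.08 to 1.47), or 1.71-fold, with an adjusted p of 0.298 from limma and an exact 2-sided permutation p of 0.114. It went down to 0.55 without Si deplete replicate 1 and up to 1.06 without Si deplete replicate 2 (adjusted p = 0.482 and 0.221 from limma).

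The Si deplete kidneys with the most Hbegf, replicates 1 and 4, also had the highest mean level of tubule injury markers, although not of every marker. For Havcr1, which encodes kidney injury molecule 1, the levels were 12.69, 11.24, 10.69 and 12.10 in Si deplete replicates 1 to 4. The mean log2 level of the 9 injury markers measured was 11.09, 10.14, 9.86 and 10.56 in the same arrays, again highest in replicates 1 and 4. Replicates 2 and 3 stood in the opposite order for Hbegf, and Krt19 (8.30) was lowest of the Si deplete group in replicate 4. In Si replete kidneys the mean of the injury markers was 9.56, 8.76, 8.70 and 9.28 across replicates 1 to 4. These lay below every Si deplete kidney, although Hbegf did not separate the groups. Within the Si replete group Hbegf was highest in replicate 2, at 3.88, whereas the injury mean was highest in replicate 1. None of the 9 passed the test, and their median difference was 0.95. With higher means, 8 had an unadjusted p under 0.05 and 7 separated the groups, beside 10.5% and 6.45% of all genes. Markers of macrophages and myeloid cells had a median difference of 0.52. Of these 10, none passed, 4 had a higher mean at an unadjusted p under 0.05 and 0 separated the groups, where the same shares of all genes apply. Their mean level was 6.83, 6.93, 6.35 and 6.89 across Si deplete replicates 1 to 4, and 5.90 to 6.66 in Si replete kidneys, with Itgam (2.40) and Cd163 (1.80) near the bottom of the scale. It was highest in Si deplete replicate 2, the Si deplete kidney with the least Hbegf. The part of tubule injury and of these cells in the Hbegf levels was not tested.

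**Figure D3:**
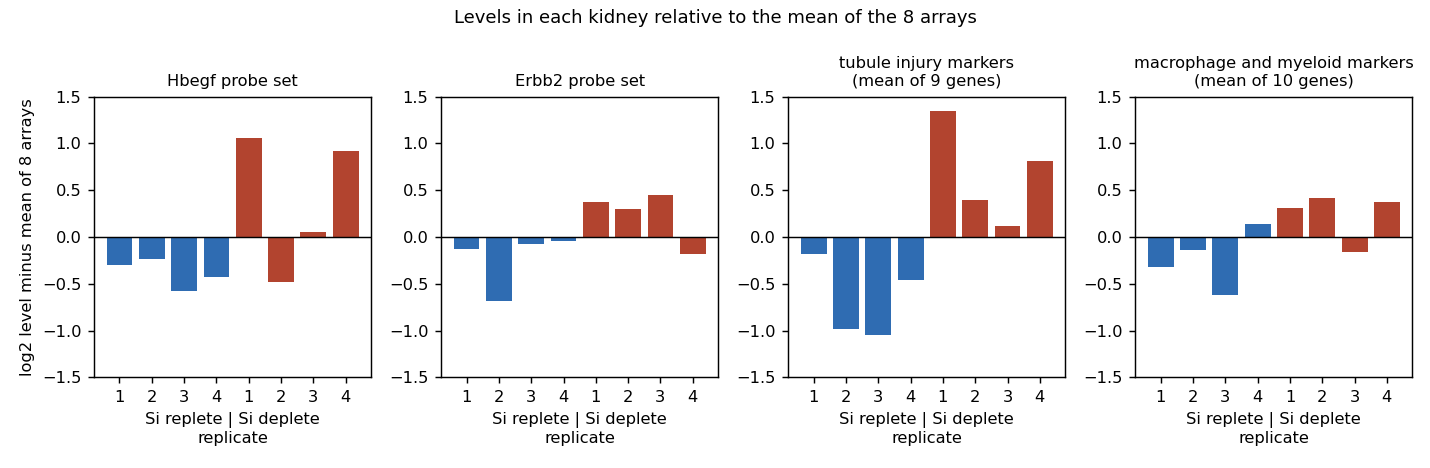
Log2 level in each of the 8 kidneys (horizontal axis, Si replete in blue and Si deplete in red) minus the mean of all 8 (vertical axis), for Hbegf, Erbb2 and the mean of the tubule injury and the macrophage and myeloid markers. Hbegf and the injury markers were both highest in Si deplete replicates 1 and 4, whereas Erbb2 was lowest of the Si deplete group in replicate 4, at 6.77. Among Si replete kidneys Hbegf was highest in replicate 2 and the injury markers in replicate 1.

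Areg (amphiregulin), Ereg (epiregulin) and Btc (betacellulin) are encoded by adjacent genes in RefSeq's table of assembly GRCr8, with 0 other protein-coding genes between them. Their mean differences were not all of one sign. Areg was 3.42, 3.73, 2.74 and 3.18 across Si deplete replicates 1 to 4, and 3.56, 2.42, 3.12 and 2.22 across Si replete replicates 1 to 4. The within-group SD, pooled over the diets, was as high as for Hbegf. The log2 difference of 0.44 (standard error 0.31) had an interval of -0.27 to 1.14. Leaving out Si replete replicate 1 gave 0.68, leaving out Si deplete replicate 2 gave 0.28, and leaving out Si replete replicate 4 gave 0.23. Ereg lay at 1.54 to 1.80 in all 8 kidneys, the lowest scale position of the family, with a log2 difference of 0.01 (standard error 0.09), or -0.01 without Si deplete replicate 1. Btc went the other way in its means, at -0.31 (standard error 0.20, adjusted p = 0.494 from limma). Its levels were 2.94, 3.55, 3.80 and 3.56 across Si deplete replicates 1 to 4, and 3.43, 3.95, 4.03 and 3.65 across Si replete replicates 1 to 4. Si deplete replicate 1, the highest array for Hbegf, was the lowest for Btc, and without it the Btc difference was -0.13.

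Tgfa, transforming growth factor alpha, had a pair of probe sets, and these ranked the kidneys in a similar order. On the brighter one the levels were 4.92, 3.96, 4.34 and 4.25 across Si deplete replicates 1 to 4, and 4.56, 4.08, 4.44 and 3.90 across Si replete replicates 1 to 4. On the other they were 3.69, 3.11, 3.55 and 3.33, and 3.55, 2.79, 3.56 and 3.04. Both placed Si deplete replicate 1 highest and Si deplete replicate 2 lowest of their group. The log2 differences were 0.13 (standard error 0.21) and 0.19 (standard error 0.20), and without Si deplete replicate 1 they were -0.06 and 0.10. Without Si replete replicate 2 the second was 0.04, and without Si replete replicate 4 the first was 0.01.

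Kidneys of one diet thus varied widely for most ligands, although for Hbegf only in the Si deplete group. The within-group SD, pooled over the diets, was 0.53 for both Hbegf and Areg. It was as high as or higher than that of 97.1% of all probe sets. For Hbegf the SD was 0.73 in Si deplete and 0.15 in Si replete kidneys, whereas for Areg it was 0.42 and 0.62. The pooled within-group SD of Tgfa (0.36 and 0.33) was at 91.1% and 88.7%, and that of Btc (0.33) at 88.6%. For the receptors it was 0.39 on the brightest Egfr probe set, at 92.8%, and 0.29 for Erbb2, at 85.3%. Ereg (0.11), Erbb3 (0.16) and Erbb4 (0.10) had SDs at or below the middle of all probe sets, and all of them were dim.

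Other ligands of the ErbB receptors were given by Egf and the neuregulins, of which 4 of 6 listed genes were measured and none passed. Egf was bright, at 12.81 to 13.26 in Si deplete kidneys and 13.04 to 13.32 in Si replete kidneys, with a log2 difference of -0.11 (standard error 0.11, adjusted p = 0.681 from limma), or -0.02 without Si deplete replicate 1. Nrg1, a ligand of Erbb3 and Erbb4, had 8 probe sets. Its brightest one was 5.47, 5.07, 4.07 and 5.09 across Si deplete replicates 1 to 4, and 4.36, 4.02, 4.19 and 4.65 across Si replete replicates 1 to 4. As for Hbegf, a single Si deplete kidney, here replicate 3, lay among the Si replete ones, and the log2 difference was 0.62 (standard error 0.27, adjusted p = 0.334 from limma). It was 0.90 and passed without that array (adjusted p = 0.0878 from limma), a fit in which 235 of all probe sets passed as higher, against 35 with all arrays. The next Nrg1 probe sets gave 0.64 and 0.46, each with an adjusted p of 0.237 from limma, and the remaining 5, all with means under 3, gave -0.07 to 0.15. The mean of all 8 differed by 0.22. Nrg2 (0.04, or 0.02 without Si deplete replicate 1) and Nrg4 (-0.11) were dim.

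Proteases and rhomboid proteins that release the ligands were measured by 7 of 8 listed genes, and none passed. Their median difference was 0.24 against 0.00 over all 14217 genes on their brightest probe sets. Adam17, the main sheddase of Hbegf, Areg and Tgfa, lay at 8.00 to 8.17 in Si deplete kidneys and 7.78 to 7.85 in Si replete kidneys. The groups did not overlap, by a small difference of 0.24 (standard error 0.07, adjusted p = 0.219 from limma), or 0.18 with array medians subtracted. Rhbdf2, a rhomboid pseudoprotease that brings Adam17 to the cell surface, was 5.61, 4.66, 4.39 and 4.29 in Si deplete replicates 1 to 4 and 3.82 to 4.12 in Si replete kidneys. It too separated the groups, with a log2 difference of 0.82 (standard error 0.26, adjusted p = 0.226 from limma), which was 0.53 without Si deplete replicate 1. Its relative Rhbdf1 differed by 0.34 (standard error 0.16) with overlap, and Adam8 by 0.44 (standard error 0.12) at a mean level of 2.05 and by 0.07 on a second probe set. Groups did not overlap for 3 of the 7 with higher means, beside 6.45% of all genes.

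Of the adaptors and kinases that carry the signal, 15 of 21 listed genes were measured, none passed, and 8 had higher and 1 a lower mean at an unadjusted p under 0.05. Over all genes these shares were 10.5% and 7.95%. The smallest p belonged to Nras, a Ras GTPase, at 8.61 to 8.98 in Si deplete kidneys and 8.10 to 8.35 in Si replete kidneys, a log2 difference of 0.50 (standard error 0.10, adjusted p = 0.145 from limma). A dimmer Nras probe set gave 0.23 (standard error 0.13). The tyrosine kinase Src differed by 0.42 (standard error 0.11) on its brightest probe set but by 0.31, -0.13 and 0.03 on the others, and by 0.16 in their mean. Plcg1, a phospholipase recruited by activated receptors, differed by 0.28 (standard error 0.08). Akt1, the kinase downstream of PI3K, differed by 0.39 (standard error 0.11) on its brightest probe set, by 0.50 on the next and by 0.01 on a dim one. On these brightest probe sets the groups of Nras, Src, Plcg1 and Akt1 did not overlap. Sos2, which loads Ras with GTP, was the gene with a lower mean, at -0.21 (standard error 0.09, adjusted p = 0.312 from limma), and is named here after its values were seen. Its groups did not overlap, as for 5.49% of all genes with all Si deplete levels lower. Pik3r1, a regulatory subunit of PI3K also named after its values were seen, had the widest difference of the list, at 1.46 (standard error 0.50, adjusted p = 0.247 from limma). Its level was 8.67 in Si deplete replicate 1, 5.98 to 6.48 in the other Si deplete kidneys and 5.30 to 5.67 in Si replete kidneys.

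Feedback inhibitors of the pathway were measured by 14 of 17 listed genes, with a median difference of 0.17, and none passed. Socs3, which is better known as an inhibitor of cytokine signalling, was 4.56, 3.14, 3.13 and 3.44 in Si deplete replicates 1 to 4 and 2.39 to 2.80 in Si replete kidneys. That is a log2 difference of 1.01 (standard error 0.29, adjusted p = 0.207 from limma), with Si deplete replicate 1 far above the rest, and 0.68 without it. Spry2, a Sprouty inhibitor of Ras signalling, differed by 0.27 (standard error 0.10) and Cbl, the ubiquitin ligase that marks Egfr for degradation, by 0.22 (standard error 0.10). Dusp6, the phosphatase of ERK, disagreed between its probe sets. It differed by 0.27 (standard error 0.12) and 0.47 (standard error 0.18) on the brighter ones but by -0.34 (standard error 0.15) on the dimmest, and by 0.14 in their mean, and none of these passed.

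Transcripts that ERK signalling can induce, among other inputs, were the only one of the 5 pathway lists with a call. Of 16 measured genes, 1 rose, none fell and 15 did not pass, where 0.169% of all genes passed with a higher and 0.0352% with a lower level. The one that rose was the transcription factor Myc, at 9.0, 8.31, 7.60 and 8.34 across Si deplete replicates 1 to 4, and 6.11, 5.59, 5.66 and 6.76 across Si replete replicates 1 to 4. Its log2 difference was 2.28 (standard error 0.33, adjusted p = 0.0817 from limma), and the call was lost without Si deplete replicate 2 or 4 or Si replete replicate 1, 2 or 3 (adjusted p = 0.135 to 0.307 from limma). The difference itself was 2.13 to 2.31 in those fits, in which 0 of all probe sets passed as higher, or 2 without Si deplete replicate 4. Egr1, an early response transcription factor, was 9.74, 8.95, 9.05 and 9.13 against 8.30, 7.87, 8.21 and 7.20, a log2 difference of 1.32 (standard error 0.26, adjusted p = 0.134 from limma). It passed by Storey's q-value (0.0955) and with the replicate number as a block (adjusted p = 0.0954 from limma). Of all probe sets, 121 and 90 passed as higher there, against 35 in the main fit. Jun separated the groups on each of its 3 probe sets, with differences of 0.56, 0.54 and 0.67 that did not pass (adjusted p = 0.183, 0.199 and 0.126 from limma). Egr2 differed by 0.70 (standard error 0.20) with overlap on one probe set, by 0.01 on a dimmer one and by 0.35 in their mean. On the first it passed with the block (adjusted p = 0.0975 from limma) and without Si deplete replicate 3 (adjusted p = 0.0838 from limma). Without that array, 235 of all probe sets passed as higher. The gene with a lower mean was Etv5, an ETS transcription factor, at -0.67 (standard error 0.38, adjusted p = 0.432 from limma), likewise named after its values were seen. Its level was 5.67 in Si deplete replicate 1, 6.79 to 7.50 in the other Si deplete kidneys and 7.28 to 7.97 in Si replete kidneys. The median difference of the list was 0.46, and 8 of the 16 had an unadjusted p under 0.05, all with higher means, beside 10.5% of all genes.

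**Figure D4:**
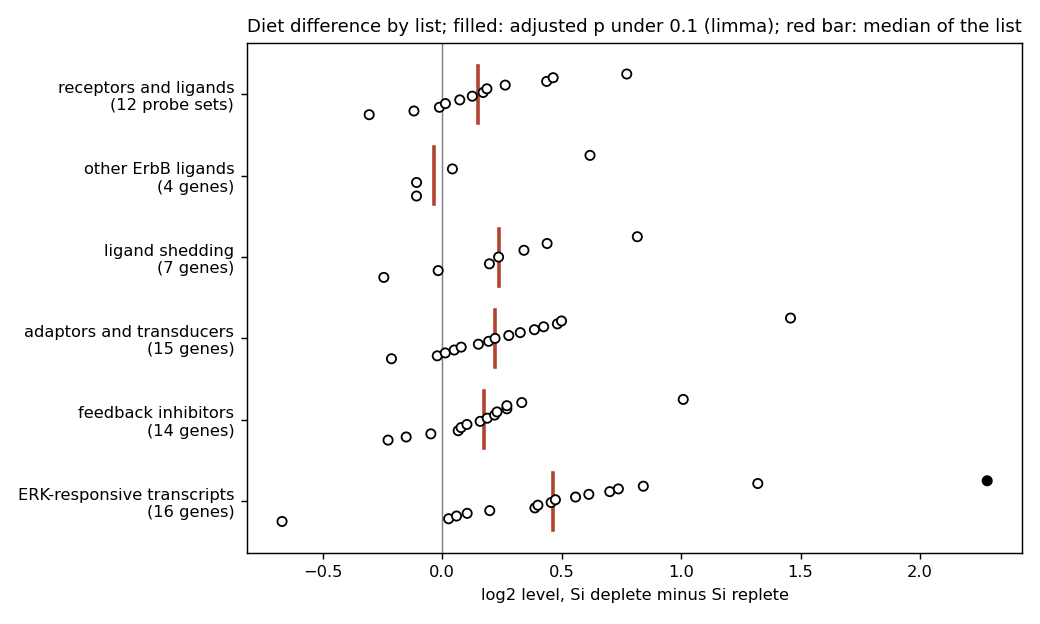
Difference in log2 level between Si deplete and Si replete kidneys (horizontal axis) for the 12 member probe sets and for the brightest probe set of each of 56 pathway genes, by list (vertical axis). Red bars are medians, and Myc, at 2.28, is the filled point that passed an adjusted p under 0.1 in limma; the median was 0.15 for the members and 0.46 for the ERK-responsive transcripts.

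Over the 5 lists, 56 of 68 genes were measured, and 23 of them had higher and 1 a lower mean at an unadjusted p under 0.05. The 23 are 41.1%, beside 10.5% of all genes, and without Si deplete replicate 1 they were 20, beside 8.67%. With array medians subtracted, 18 had higher means at that p, beside 7.53%. Among the members the count was 2 of 12 probe sets with all arrays and 0 without Si deplete replicate 1. All these genes were read from the same 8 arrays, and the difference between these shares was not tested. The lists were chosen with earlier results of these data known, so the shares are a description only.

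The probe sets whose levels ran most closely with those of Erbb2 and Hbegf over the 8 arrays were listed as a description, by Pearson's r among 20825 probe sets with 1 symbol. For Erbb2 they belonged to Nek9 (r = 0.98), Ttyh3 (0.97), Dnmt3a (0.96), Cc2d1a (0.96) and Muc4 (0.96). Muc4, a membrane mucin known as a binding partner of Erbb2, was dim, at a mean level of 3.32. For Hbegf they belonged to B4galt7 (r = 0.97), Tmem88 (0.96), Erap1 (0.96), Slco5a1 (0.96) and Hif1a (0.95), the hypoxia-responsive transcription factor, whose own difference between the diets was 0.17 (standard error 0.08). None of these 10 passed the test between diets. They are the extremes of a search over many probe sets with 8 arrays, and no p is given for them.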

How the data were processed

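RNA of the left kidney of 8 rats, 4 on each diet, was profiled on Affymetrix rat genome arrays. The deposited values are log2 levels, which the authors computed with gcRMA (GC-content background correction, normalization across arrays and an m-estimator summary of each probe set). GCRMA 2.36.0 is named in the submitters' processing notes. The values were used without further normalization. Whether probe sets had been filtered is not stated, and of the 31099 present, 57 controls were dropped.

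The diets, taken from the labels, were contrasted as Si deplete minus Si replete by limma 3.58.1 in R 4.3.3 (lmFit, then eBayes with default settings). P-values were adjusted by Benjamini-Hochberg over the remaining 31042 probe sets, and a threshold of 0.1 was used because the study's methods set its false discovery rate there. Gene symbols come from the platform annotation, and the 9 member genes matched RefSeq by Entrez ID with 0 symbols changed. For the pathway and marker lists, each gene was read from its probe set with the highest mean. The genes named are all members, the 4 with the smallest p in each pathway list, defining markers of the marker lists, and the 5 probe sets most like the receptor and the ligand with the smallest p. Sos2, Pik3r1, Etv5 and Krt19 were named after their values were seen. Members and lists were chosen with earlier results of these data known. The test was run first on simulated data. The most similar pair of arrays correlated at 0.9961, and all arrays were kept as separate samples. Each array is 1 rat, and 4 arrays a group limit the precision.

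Results were recomputed with array weights, with a prior fitted robustly, and with a prior that follows intensity. They were also recomputed without probe sets of mean under 4, after subtraction of array medians, after quantile normalization, with a replicate block, and without each array in turn. Further alternatives were the threshold 0.05, Storey's q-value at lambda 0.5, and averaging the probe sets of each gene.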

Additional observations from a re-analysis of the deposited data

Results flagged for a closer look

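In 3 of 64 groups of 4 arrays, among members and named pathway genes, 1 array stood apart from the others of its group by Dixon's test at the 95% level, which chance gives in about 1 of 20 groups. Erbb2 was 6.28 in Si replete replicate 2, whereas the other Si replete arrays lay between 6.83 and 6.92. Dusp6 was 9.40 in Si replete replicate 3, against 9.13 to 9.14 in the others, and Egr2 was 3.21 in Si deplete replicate 3, against 3.87 to 3.93. The cause of these values was not tested.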

How the results depend on the processing

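Under all 17 settings in which the members were fitted as probe sets, 0 passed in either direction (limma; at an unadjusted p under 0.05, in 15 settings, 0 to 2 higher and 0 to 1 lower), and the lowest adjusted p or q-value was 0.161, for Erbb2. Those with higher means at an unadjusted p under 0.05 went from 2 to 0 without Si deplete replicate 1 and to 1 without Si deplete replicate 2, 3 or 4 or Si replete replicate 2, 3 or 4. Of 209 recomputed member differences, 193 kept their direction and 16 did not. The 193 overstate stability, because several settings leave a difference itself unchanged. These were the intensity-following and robust priors, the replicate block, the threshold 0.05 and Storey's q-value. Leaving out probe sets under 4, and averaging a gene with a single probe set, also leave it unchanged. Egfr on its dimmest probe set turned to 0.0121 with array weights (-0.12 to 0.0784 when 1 array was left out). The mean of all Egfr probe sets differed by 0.14. That is counted among the 16, although it is another quantity than the dimmest probe set. Ereg turned to -0.0027 with array weights and -0.0441 with array medians subtracted (-0.0284 to 0.0584 when 1 array was left out). When 1 array was left out, Egfr on its brightest probe set ranged from -0.0207 to 0.35, Erbb3 from -0.0027 to 0.14 and the brighter Tgfa probe set from -0.0587 to 0.26. Nrg2 turned to -0.0149 with medians subtracted and -1e-04 with the mean of its probe sets (-0.0278 to 0.12 when 1 array was left out). Pathway genes that rose went from 1 to 3 with the replicate block, 0 at a threshold of 0.05 and 2 by Storey's q-value, which added Egr1 (0 to 3 when 1 array was left out). Calls over all probe sets moved too. Those that passed as higher went from 35 to 90 with the block and 121 by Storey's q-value. Without Si deplete replicate 3 they were 235, with 67 as lower, against 12 in the main fit. With the replicate block, members that passed stayed at 0 higher and 0 lower. Btc, with a lower mean, had the smallest adjusted p of the members there (0.261 from limma). It was the 1 lower member at an unadjusted p under 0.05. Hbegf and Erbb2 had adjusted p-values of 0.287 and 0.309 from limma. Egr1 (adjusted p = 0.0954 from limma) and Egr2 (adjusted p = 0.0975) passed with Myc. Same-numbered arrays had deviations from their group means with correlations of 0.0883, 0.0904, 0.0787 and -0.088. For 4 of 8 arrays the best match was the same number, and no pairing was assumed. The paper states that rats were killed singly, with a rat of each group handled on a given day. The labels do not link replicate numbers to days, so same-day pairs are not known. The match of numbers therefore cannot show whether such pairs exist, and the main fit leaves the day out. Probe sets under 4 were not fitted when such levels were left out. Levels near the bottom of the scale limit what could be seen of Erbb4, Ereg and the dim Egfr probe sets.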
